A study of Mus musculus with 2 samples.

Results

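The collagen chain genes were described on arrays of cultured mouse ovary, with a chain gene taken as any gene whose symbol is Col, a number, the letter a and a number. Among the 20658 named genes on the array, 43 were collagen chains, matched through RefSeq accessions to 63 of the 55674 probes other than controls. Only 27230 probes could be named in this way, and a collagen probe listed under another kind of accession is not counted. They comprised 11 fibrillar chains, 6 basement membrane chains (all of type IV) and 26 other chains. Col12a1 was the only collagen symbol of the RefSeq gene table without a matched probe.

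Collagens are trimers of chains wound into a triple helix. Fibrillar collagens form the rope-like fibers of connective tissue, type IV collagen forms the sheet-like network of basement membranes, and the other types link fibrils, form beaded filaments, anchor membranes or span the cell surface. In the ovary, the follicle is enclosed by a basement membrane, and the stroma, the theca and the outer tunica contain fibrillar collagen that is remodelled as follicles grow.

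Pieces of ovary from mice aged 2 weeks, each ovary having been cut symmetrically, were cultured for 3 days with ligands of tachykinin receptors (TKRs), the receptors of substance P and the neurokinins. The agonist group received [Sar9, Met(O2)11]-SP for TACR1, GR-64349 for TACR2 and a succinylated substance P fragment, senktide, for TACR3, each at 1 μM. The antagonist group received a nonpeptide blocker for TACR1, GR-94800 for TACR2 and SB218795 for TACR3, each also at 1 μM and under the same culture conditions. The comparison addresses which ovarian transcripts differ between TKR stimulation and blockade. There was 1 single-color array for each group and no array of untreated ovary was analysed here, so a ratio does not show which group departed from an unstimulated ovary. With no replicates, the values below describe a pair of RNA samples, and no test or p-value is given. The sources used here do not state the number of ovaries behind each RNA, the strain of the mice on the arrays, or whether the pieces of an ovary went to different groups.

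Signals are the background-corrected intensities of the image software, in arbitrary units. The log2 ratio is that of the agonist over the antagonist array, after each array was divided by its 75th percentile, which was 672 for the agonists and 569 for the antagonists. Without this division every log2 ratio is 0.24 larger. A gene was counted as detected where its probe was well above background by the software's criterion, which held for 65.4% and 61.6% of the 59305 spots on the agonist and antagonist arrays, and 0 spots were saturated. The error given with a ratio is propagated from the error that the software assigns to the spots. It covers the measurement of a spot and not the difference between ovaries or cultures, and its median over the detected chains was 0.21.

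Markers of the labelled tissue were present. All 10 granulosa markers and all 10 oocyte markers were detected on both arrays, as were 6 of 7 theca markers, Lhcgr being well above background on neither.

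Promoter sequences are shown for the chain pair that shares a promoter region (Col4a1 and Col4a2), for one chain of the main fibrillar collagen (Col1a2) and for the chain with the largest difference among brightly measured collagens (Col18a1, which has a pair of windows from separate starts). Each runs 5′ to 3′ on the strand of its gene, from 250 bases before to 50 bases after the start that RefSeq gives on GRCm38.p6. Capitals mark the letters CCAAT or ATTGG (the CCAAT box on either strand), GGGCGG or CCGCCC (the GC box) and TATAAA or TTTATA (the TATA box).
Col4a1, chr8:11312777-11313076, minus strand: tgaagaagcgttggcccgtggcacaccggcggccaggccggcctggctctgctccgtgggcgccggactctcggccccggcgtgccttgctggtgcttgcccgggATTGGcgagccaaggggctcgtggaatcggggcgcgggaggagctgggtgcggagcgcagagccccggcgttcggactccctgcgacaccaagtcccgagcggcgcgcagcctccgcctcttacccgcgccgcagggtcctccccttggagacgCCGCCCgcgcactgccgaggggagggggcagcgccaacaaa
Col4a2, chr8:11312555-11312854, plus strand: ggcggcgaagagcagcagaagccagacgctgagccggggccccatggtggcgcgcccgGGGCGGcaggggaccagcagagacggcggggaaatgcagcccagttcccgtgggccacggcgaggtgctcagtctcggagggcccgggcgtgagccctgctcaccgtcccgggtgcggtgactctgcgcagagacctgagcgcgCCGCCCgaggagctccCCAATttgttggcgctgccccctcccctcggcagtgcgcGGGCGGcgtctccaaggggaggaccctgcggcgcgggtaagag
Col1a2, chr6:4505368-4505667, plus strand: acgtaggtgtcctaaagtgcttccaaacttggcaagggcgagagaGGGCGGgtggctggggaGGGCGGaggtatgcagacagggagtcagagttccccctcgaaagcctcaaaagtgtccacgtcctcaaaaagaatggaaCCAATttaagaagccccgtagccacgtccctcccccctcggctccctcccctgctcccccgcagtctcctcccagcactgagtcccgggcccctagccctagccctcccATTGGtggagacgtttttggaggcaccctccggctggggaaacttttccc
Col18a1 first start, chr10:77166481-77166780, minus strand: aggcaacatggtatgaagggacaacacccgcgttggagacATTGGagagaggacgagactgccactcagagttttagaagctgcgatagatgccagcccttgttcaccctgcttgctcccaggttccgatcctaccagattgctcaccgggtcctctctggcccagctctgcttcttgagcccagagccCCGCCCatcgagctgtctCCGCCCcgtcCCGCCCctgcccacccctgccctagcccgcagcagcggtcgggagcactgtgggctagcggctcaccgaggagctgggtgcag
Col18a1 second start, chr10:77113656-77113955, minus strand: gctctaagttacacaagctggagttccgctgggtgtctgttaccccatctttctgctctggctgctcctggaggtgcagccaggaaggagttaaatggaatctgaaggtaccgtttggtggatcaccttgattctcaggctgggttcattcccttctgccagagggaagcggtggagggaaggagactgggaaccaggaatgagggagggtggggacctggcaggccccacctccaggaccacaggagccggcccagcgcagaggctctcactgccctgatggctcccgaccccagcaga

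The starts of Col4a1 and Col4a2 lie 21 bases apart on opposite strands, and their windows overlap by 78 bases, so the GC box near the end of both windows is the same stretch read from either strand. The starts of Col4a5 and Col4a6, the other type IV pair with a listed promoter for each chain, lie 1343 bases apart and their windows share 0 bases. Of the 43 chains, 35 had a promoter in the RefSeq table, with 38 windows in all. The GC box letters were in 23 of these 38 windows (60.5%), against 35.7% of all 32851 promoters of the same length. The CCAAT box letters were in 13 (34.2%, against 37.4% of all promoters) and the TATA box letters in 5 (13.2%, against 13.6%). A match of letters is a description of the sequence and does not show that a factor binds there.

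Most collagen chains were expressed in the cultured ovary. Of the 43 chains, 36 were well above background with the agonists, 34 with the antagonists and 34 on both arrays (79.1%, against 73.9% of all 20658 named genes). The 6 type IV chains were all detected on both arrays, as were 9 of the 11 fibrillar chains and 19 of the 26 others. Col24a1 and Col8a1 were well above background with the agonists only, and 0 chains with the antagonists only. The chains well above background on neither array were Col2a1 and Col10a1, which are found in cartilage, together with Col9a3, Col13a1, Col17a1, Col19a1 and Col28a1.

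**Figure D1:**
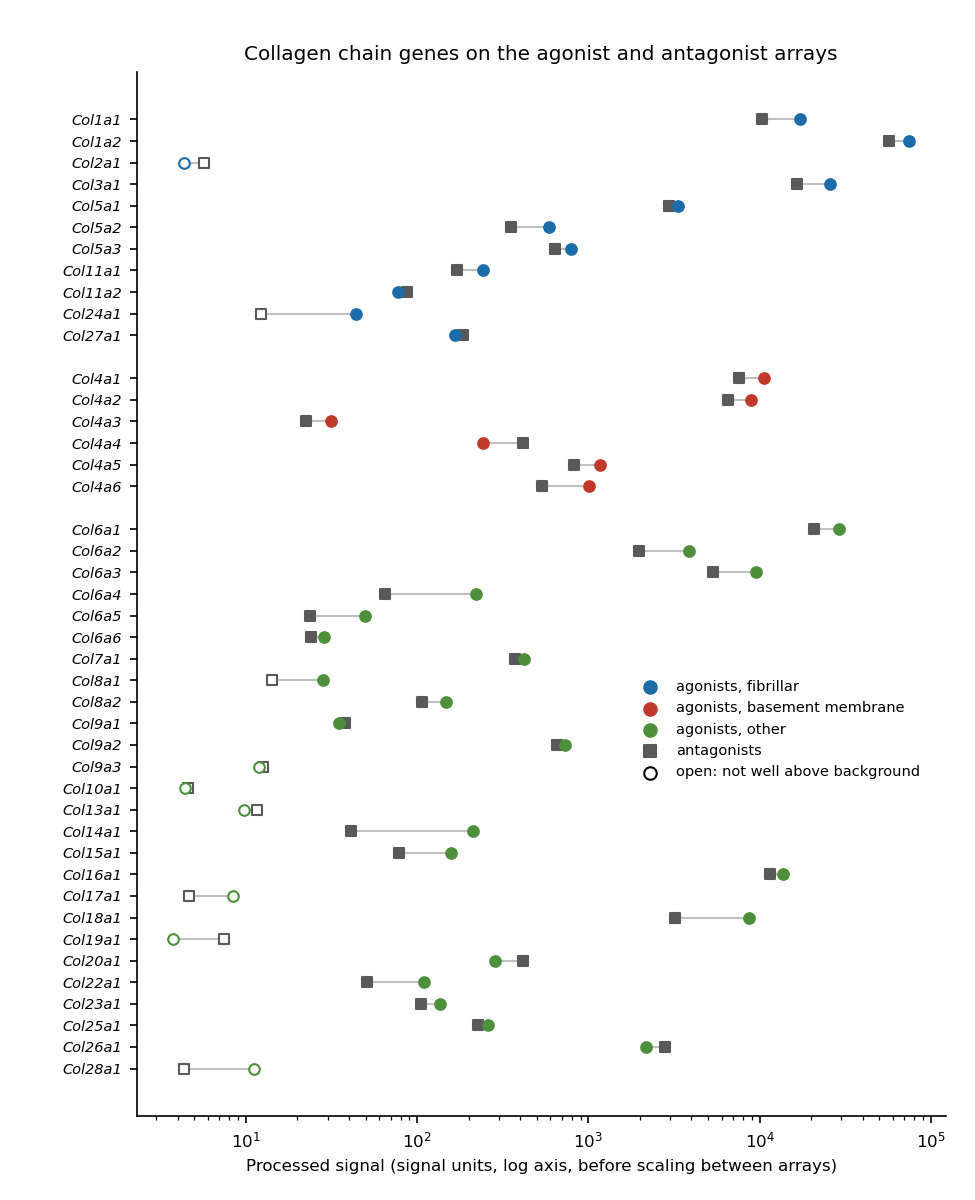
Processed signal of the 43 collagen chains on the agonist array (circles, colored by class) and the antagonist array (gray squares), on a log axis and before division by the 75th percentile. Open symbols are not well above background; the pair of symbols of a gene can be compared, whereas levels of different genes rest on different probes and cannot. The signal was higher with the agonists for most detected chains, with Col4a4, Col20a1 and Col26a1 among those with the opposite order.

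Collagen transcripts as a group were modestly higher on the agonist array. The median log2 ratio of the 34 chains detected on both arrays was 0.23, whereas that of all 15260 named genes so detected was -0.10, with quartiles of -0.27 and 0.15. The ratio was above 0 for 24 chains and below 0 for 10. Thus 70.6% of the chains were above 0, against 37.7% of all genes. The medians of the classes were close to one another, at 0.15 for fibrillar, 0.24 for basement membrane and 0.22 for other chains. Over the alternative ways of processing, each class median stayed above 0 and above the median of all genes. Scalings that shift every gene alike cannot change the order of a class median and that of all genes. Over the same alternatives, 19 chains stayed above 0 and 6 below 0. The sign depended on the processing for Col5a1, Col4a3, Col6a5, Col6a6, Col7a1, Col9a2, Col16a1, Col23a1 and Col25a1. Among genes whose mean signal reached the 75th percentile, the median was 0.25 for 16 chains, of which 13 were above 0, and -0.15 for all 8430 such genes, of which 28.6% were above 0.

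Differences of 2-fold were few. Higher with the agonists by at least 2-fold were 3 of the 34 chains (8.82%, against a background of 4.01% of all genes): Col14a1, Col6a4 and Col18a1. At least 2-fold lower was 1 chain, Col4a4 (2.94%, against 0.577%). The log2 ratio was at or above 0.5 for 9 chains (26.5%, against 10.9% of all genes) and at or below -0.5 for 3 (8.82%, against 6.57%), and 22 chains lay between these limits. Col4a4 lay so close to the threshold that no scaling, loess or the summary table left 0 chains at least 2-fold lower, and with normexp background correction only Col18a1 stayed at least 2-fold higher. In whole tissue, fewer cells of a type and less RNA in each cell cannot be told apart.

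**Figure D2:**
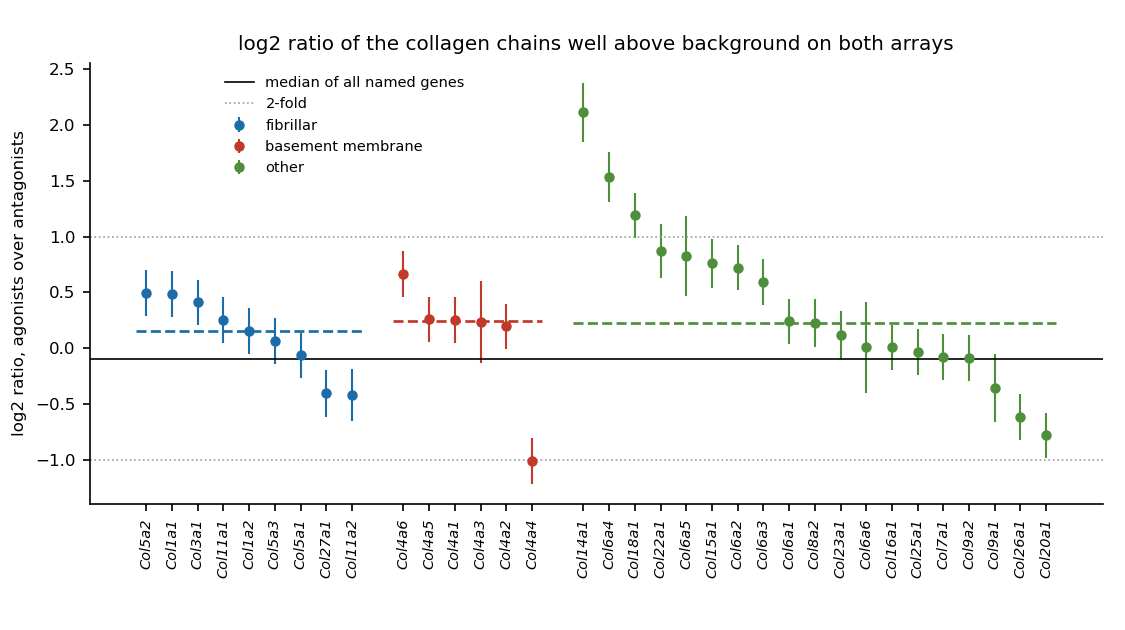
log2 ratio of agonists over antagonists for the 34 collagen chains well above background on both arrays, by class. Bars are the software's error of the spots and not a spread between ovaries; dashed lines are class medians (0.15, 0.24 and 0.22), the solid line is the median of all named genes (-0.10) and dotted lines mark 2-fold. Only Col14a1, Col6a4 and Col18a1 lie above the upper dotted line, and only Col4a4 lies at the lower one.

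Markers of several cell types differed between the same arrays. Of 8 stroma markers, 7 were detected on both arrays, with a median log2 ratio of 0.34, 6 above and 1 below 0, and a summed scaled signal (the signals of the list, each divided by the 75th percentile of its array, added up) of 245 with the agonists and 204 with the antagonists; this list shares Dcn and Lum with the fibril-binding list. The 9 surface epithelium markers were all above 0 with a median of 1.03 and sums of 42.7 and 18.8. The smooth muscle markers detected on both arrays (6 of 7) were all above 0 with a median of 0.71 and sums of 39.3 and 24.1. Of the 10 endothelium markers, 9 were detected on both arrays, with a median of 0.88, 8 above 0, and sums of 74.6 and 60.9. The macrophage markers detected on both arrays (6 of 8) were all above 0 with a median of 1.14 and sums of 22.4 and 14.3, Cd163 being well above background on neither array.

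Among markers of the follicle, the granulosa and theca medians lay below that of all genes and the oocyte median above it. The granulosa markers had a median log2 ratio of -0.57, with 2 above and 8 below 0 and summed scaled signals of 125 with the agonists and 180 with the antagonists. The oocyte markers had a median of 0.18, with 7 above and 3 below 0 and sums of 233 and 239, and the theca markers a median of -0.26, with 2 above and 4 below 0 and sums of 93.1 and 92.9. Of the adipocyte markers 4 of 7 were detected on both arrays, with a median of 0.41 and Adipoq and Lep well above background on neither, and of the motile cilia markers 4 of 6, with a median of -0.13 and Dnah5 and Dnah9 on neither. These lists differed on the same pair of arrays as the collagens, and their part in the collagen ratios was not tested.

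The distribution of ratios places the chains among all genes. Fibrillar chains ranged from -0.42 to 0.50 and none reached 2-fold. Of the type IV chains, 4 lay between 0.20 and 0.26, Col4a6 lay above them at 0.66 and Col4a4 below them at -1.01. The other chains ranged from -0.78 to 2.11, the broadest of the classes.

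**Figure D3:**
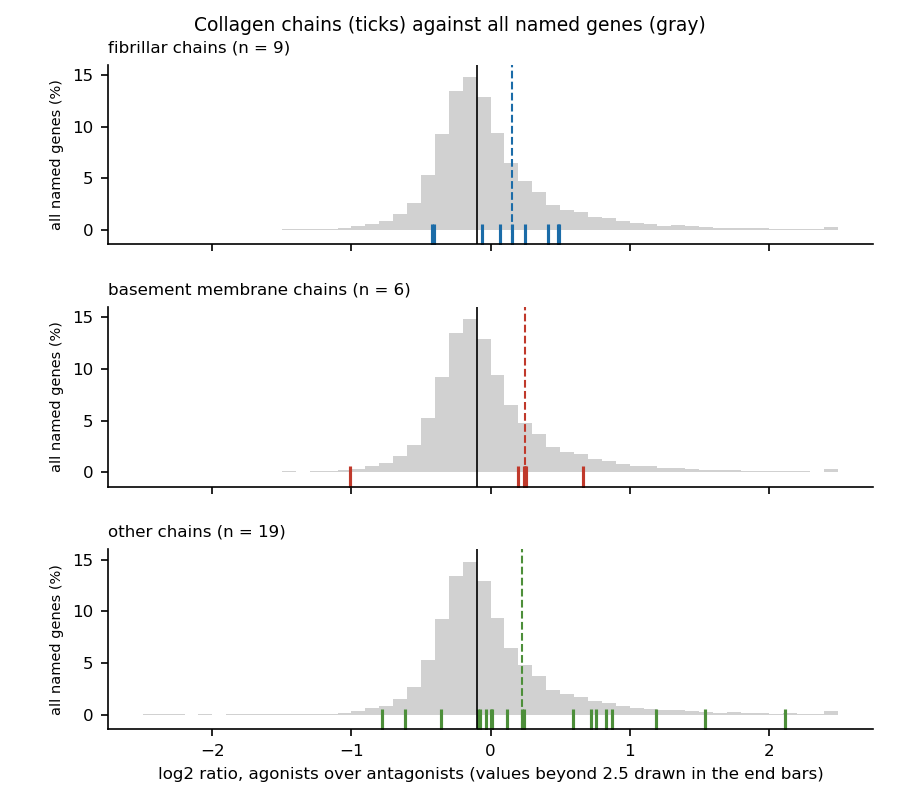
Share of all 15260 named genes detected on both arrays in bins of the log2 ratio (gray bars, percent), with the collagen chains of each class as ticks. The black line is the median of all genes (-0.10) and the dashed line that of the class; the class medians lie to the right of the black line in every panel, and the ticks of the other chains reach from -0.78 to 2.11.

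Type I and type III collagens are the chief fibers of the stroma, and their log2 ratios were between 0.15 and 0.49. Col1a1, which supplies a pair of chains to each type I trimer, gave a signal of 17215 with the agonists and 10390 with the antagonists (log2 ratio 0.49 ± 0.20). Col1a2, its partner and the chain whose promoter is shown, gave 74527 and 56709 (log2 ratio 0.15 ± 0.20), a ratio within its error of 0. The ratios of these partners lay 0.33 apart, more than the error of 0.29 of this difference. It was less than the median span of 0.41 between probes of a single chain. A difference between the partners therefore cannot be told apart from a difference between probes. Col3a1, the single chain of type III collagen of soft tissue, gave 25878 and 16466 (log2 ratio 0.41 ± 0.20). Over the alternative ways of processing, Col1a1 ranged from 0.43 to 0.76, Col1a2 from 0.10 to 0.42 and Col3a1 from 0.35 to 0.68.

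Type V chains initiate fibrils and limit their width. Col5a2 gave 589 with the agonists and 353 with the antagonists (log2 ratio 0.50 ± 0.20), which was the highest of the fibrillar chains. Its trimer partner Col5a1 gave 3351 and 2962 (log2 ratio -0.06 ± 0.20). The ratios of these partners lay 0.56 apart, more than the error of 0.29 of this difference. It was also more than the median span of 0.41 between probes of a single chain. Wider spans, of 0.69 to 1.59, were seen between probes of Col25a1, Col4a4, Col4a6 and Col14a1. A difference between the chains therefore cannot be told apart from a difference between probes. Col5a3 gave 795 and 642 (log2 ratio 0.07 ± 0.20).

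The remaining fibrillar chains were split. Col11a1, which nucleates fibrils in cartilage and some soft tissues, gave 242 and 172 (log2 ratio 0.25 ± 0.21). Col11a2 gave 76.9 and 87.1 (log2 ratio -0.42 ± 0.23), opposite in sign to Col11a1. Col27a1 gave 166 and 186 (log2 ratio -0.40 ± 0.21). Col24a1 gave 43.7 with the agonists and 12.2, not well above background, with the antagonists. After scaling, the agonist signal of Col24a1 was 1.86-fold the lowest signal well above background on the antagonist array (19.9). This bound does not include the error of its log2 ratio, which was 0.56.

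Type IV collagen is made of a common trimer of Col4a1 and Col4a2 chains and, in some basement membranes, of trimers with Col4a3 to Col4a6. Col4a1 gave 10673 with the agonists and 7588 with the antagonists, and Col4a2 gave 8883 and 6560. Their log2 ratios were 0.25 and 0.20, and the difference of 0.05 was smaller than its error of 0.29. These genes are the pair that share the promoter region shown above. Col4a5 gave 1163 and 823 (log2 ratio 0.26 ± 0.20), and thus lay beside them.

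Col4a3 and Col4a4 are also neighbors arranged head to head, and the size of the gap between them depended on the probe. Col4a3 gave 31.5 and 22.6 (log2 ratio 0.24 ± 0.37) near the detection limit. Col4a4 gave 244 with the agonists and 416 with the antagonists (log2 ratio -1.01 ± 0.21), and was the only collagen at least 2-fold lower. A second probe of Col4a4 gave 56.3 and 57.9 (log2 ratio -0.28), and the remaining probe was not well above background on either array. The probes of Col4a4 thus had the same sign and differed by 0.73, and the mean over its probes no longer reached 2-fold.

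Col4a6 stood above the other type IV chains by the probe that represents it, with 1005 and 537 and a log2 ratio of 0.66 ± 0.20. Its second probe gave 220 and 226 (log2 ratio -0.28). The direction for Col4a6 therefore depends on the probe. Against Col4a5 at 0.26, its partner in another head-to-head pair, one probe of Col4a6 lay higher and the other lower.

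Type VI collagen, which forms beaded filaments around cells and next to basement membranes, had the highest median of the groups with over 2 detected chains. All 6 of its chains were detected on both arrays and had a log2 ratio above 0, with a median of 0.66, although Col6a6 was at 0.01 and the signs of Col6a5 and Col6a6 were not kept in every alternative. Col6a1 gave 29195 with the agonists and 20896 with the antagonists (log2 ratio 0.24 ± 0.20). Col6a2 gave 3872 and 1985 (log2 ratio 0.72 ± 0.20). Col6a3 gave 9576 and 5365 (log2 ratio 0.59 ± 0.20). These chains assemble in equal numbers, and their ratios lay 0.13 to 0.48 apart. Col6a1 lay below Col6a2 by 0.48 and below Col6a3 by 0.35, each more than the error of 0.29 of the difference. Probes of a single gene can lie that far from each other on these arrays.

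The later members of the type VI family can take the place of Col6a3 in the trimer. Col6a4 gave 222 with the agonists and 64.6 with the antagonists (log2 ratio 1.54 ± 0.22, 2.91-fold). A second probe of Col6a4 gave 17.0 and 5.79 and was well above background on neither array. Col6a5 gave 49.5 and 23.5 (log2 ratio 0.83 ± 0.36). Col6a6 gave 28.6 and 24.1 (log2 ratio 0.01 ± 0.41). Col6a5 and Col6a6 lay close to the detection limit, where the error is larger.

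Types XV and XVIII, the multiplexins, are proteoglycan collagens of basement membrane zones, and a fragment of type XVIII is endostatin. Col18a1 gave 8675 with the agonists and 3213 with the antagonists (log2 ratio 1.19 ± 0.20, 2.28-fold). Its second probe gave 5145 and 2324 (log2 ratio 0.90). Col15a1 gave 158 and 78.7 (log2 ratio 0.76 ± 0.22), and its 3 probes ranged from 0.76 to 1.11. Every probe of the multiplexins was thus higher with the agonists by a log2 ratio of at least 0.76.

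Collagens that decorate the surface of fibrils, the FACIT group, spanned the range from -0.78 to 2.11 and held the highest and the lowest ratio among the other chains. Col14a1, which binds fibrils of interstitial tissue, gave 212 with the agonists and 41.3 with the antagonists (log2 ratio 2.11 ± 0.26, 4.33-fold). A second probe of Col14a1 gave 102 and 60.1 (log2 ratio 0.52), so both probes were higher with the agonists and the probes differed by 1.59 on the log2 scale. Col22a1, a collagen of tissue junctions, gave 109 and 50.6 (log2 ratio 0.87 ± 0.24). Col20a1 gave 285 and 414 (log2 ratio -0.78 ± 0.21), with a second probe at -0.55. The median of the 6 FACIT chains detected on both arrays was -0.04.

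Col26a1, a short collagen outside these groups that is known from testis and ovary, gave 2170 with the agonists and 2815 with the antagonists (log2 ratio -0.62 ± 0.20). It was the only collagen below -0.5 among those whose mean signal reached the 75th percentile. Col8a1, a network-forming chain of vessel walls, gave 28.2 with the agonists and 14.1, not well above background, with the antagonists. After scaling, its agonist signal was 1.20-fold the lowest signal well above background on the antagonist array. The error of its log2 ratio was 0.53, so a difference is not shown. The remaining 7 chains of this class detected on both arrays (Col7a1, Col8a2, Col9a1, Col9a2, Col16a1, Col23a1 and Col25a1) had log2 ratios from -0.36 to 0.22.

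Repeated measurements were available for some chains. The Col4a1 probe was printed in 10 spots on each array. Its spots ranged from 10037 to 11135 with a median of 10629 on the agonist array. On the antagonist array they ranged from 7344 to 7906 with a median of 7488. The spots thus did not overlap before scaling, where every log2 ratio is 0.24 larger. After scaling, the dimmest agonist spot still exceeded the brightest antagonist spot by 0.10 on the log2 scale. How many other probes with 10 spots separate in this way is not given here, so the separation is not particular to Col4a1. The ratios of the 10 spots averaged 0.25 with an SD of 0.06, close to the median SD of 0.07 over the 284 such probes detected on both arrays. This is the error of spots of one RNA, and it was smaller than the software's error of 0.20.

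Different probes of one gene differed more than spots of one probe. Of the 9 chains with over 1 probe detected on both arrays, 5 had probes of the same sign and 4 (Col4a6, Col16a1, Col23a1 and Col25a1) of opposite sign. The span between the probes of a gene had a median of 0.41 on the log2 scale and exceeded 0.5 for Col14a1, Col4a6, Col4a4 and Col25a1. For Col9a1, the probe detected on both arrays gave 34.9 and 37.9 (log2 ratio -0.36), and the second probe was well above background with the agonists only. Of the 43 chains, 29 had 1 matched probe, and 42 were read from a single spot of the probe used.

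**Figure D4:**
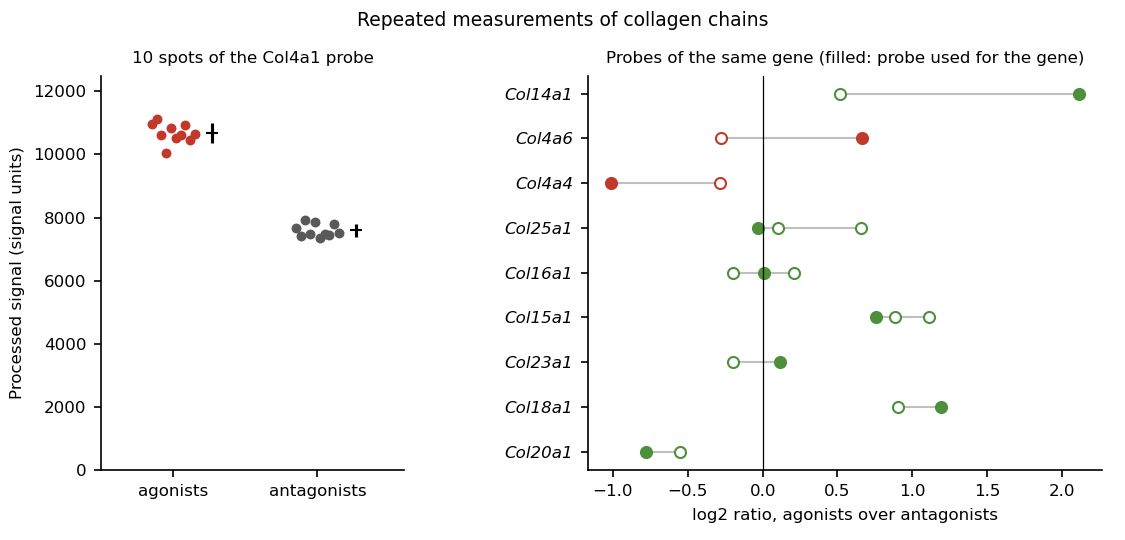
Left, processed signals of the 10 spots of the Col4a1 probe on each array, with the mean and SD over spots beside them; right, log2 ratios of all probes detected on both arrays for the 9 collagen chains with over 1 such probe. The spots of Col4a1 do not overlap between the arrays before scaling (10037 to 11135 against 7344 to 7906). The probes of Col14a1 and Col4a6 lie 1.59 and 0.94 apart on the log2 scale.

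Genes that modify, fold, trim, crosslink or bind collagen lay, as a group, between the collagens and all genes. Of 59 genes in 8 lists, 55 were detected on both arrays, with a median log2 ratio of 0.07, 32 above 0 and 23 below 0. At least 2-fold higher were 5 genes (9.09%, against 4.01% of all genes) and at least 2-fold lower 0 (against 0.577%). The software's errors of the log2 ratios given for those of these genes detected on both arrays were from 0.20 to 0.30. The enzymes that hydroxylate prolines, which stabilize the triple helix, had a median of 0.06, from -0.18 for P4ha1 to 0.22 for P3h2. Those that modify lysines had a median of 0.12, from -0.14 for Colgalt1 to 0.23 for Colgalt2. The folding and export genes had a median of -0.07, from -0.27 for Mia3, the export factor for procollagen, to 0.45 for Fkbp10, a prolyl isomerase that acts on procollagen.

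Propeptides are removed from procollagen before fibrils form. Pcolce, an enhancer of the protease that removes the C-propeptide, gave 41246 with the agonists and 22353 with the antagonists (log2 ratio 0.64). Its relative Pcolce2 gave 33.7 and 50.3 (log2 ratio -0.82), and Adamts14, which removes the N-propeptide, gave 1158 and 1623 (log2 ratio -0.73). The median of the 6 detected genes of this list was -0.17, with Tll2 well above background on neither array. Of the lysyl oxidases, which crosslink the chains, Loxl3 was at -0.01 and Loxl1 at 0.25. Lox itself, named after its values were seen, gave 93.4 with the agonists and 9.32, not well above background, with the antagonists. After scaling, its agonist signal was 3.97-fold the lowest signal well above background on the antagonist array. This bound does not include the error of its log2 ratio, which was 0.68.

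Proteins that bind fibrils held 3 of the 5 handling genes that were at least 2-fold higher. Postn, a matricellular protein of connective tissue, gave 1289 with the agonists and 353 with the antagonists (log2 ratio 1.63). Fn1, fibronectin, gave 11891 and 4333 (log2 ratio 1.21), and Thbs1, thrombospondin 1, gave 6395 and 2699, just past 2-fold after scaling. Bgn was at 0.57, and Lum, which limits the thickness of fibrils, was the lowest of the list at -0.30. The list median was 0.34 over 9 genes.

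Among collagen receptors, Itga2 gave 68.0 with the agonists and 28.1 with the antagonists (log2 ratio 1.04), and Itga11 was the lowest at -0.36. The receptor median was -0.03 over 6 genes. Of the laminins and other basement membrane partners of type IV collagen, Lama4, the laminin chain of vessels and muscle, gave 2372 and 846 (log2 ratio 1.25), and Lama5 gave 2346 and 1209 (log2 ratio 0.71). Agrn was the lowest at -0.19 by the probe that represents it, and a dim second probe gave 29.7 and 22.0 (log2 ratio 0.19). The median of the 11 genes was 0.13, below the 0.24 of the type IV chains themselves.

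**Figure D5:**
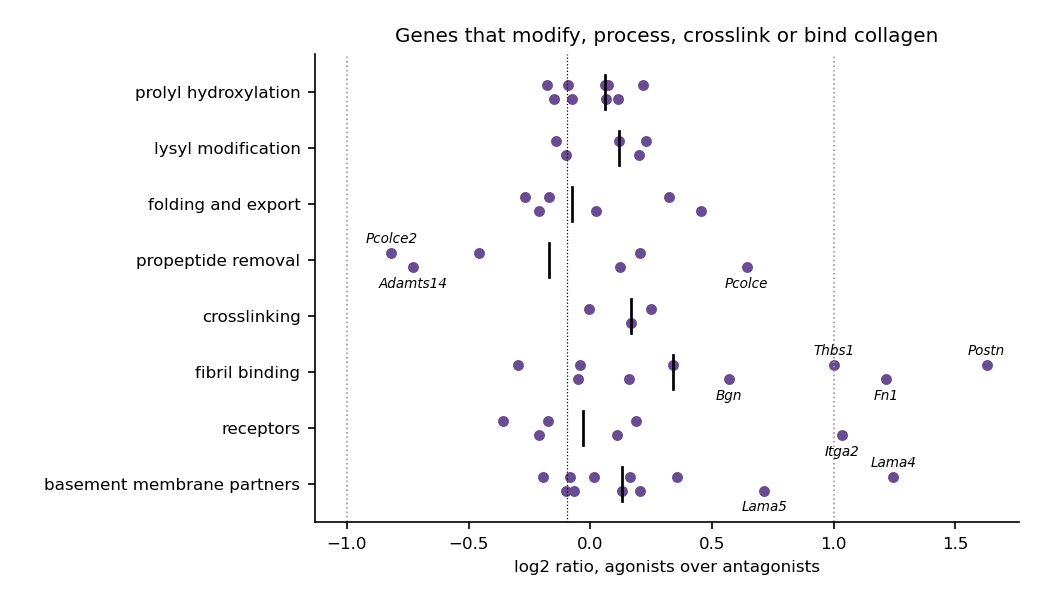
log2 ratio of agonists over antagonists for the 55 collagen-handling genes detected on both arrays, by role. Points are genes, black bars are list medians (from -0.17 for propeptide removal to 0.34 for fibril binding), and dotted lines mark the median of all named genes (-0.10) and 2-fold; genes at or beyond 0.5 are named.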

How the data were processed

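RNA of cultured ovaries was hybridised to 2 single-color Agilent SurePrint G3 mouse arrays, 1 per group. The authors deposited the intensity of each spot after the background correction of Agilent Feature Extraction 10.10.1.1 (array design annotated on mm9), without scaling between arrays, and a summary table of intensities that was found to equal these values times a constant for each array (1.99 and 2.19, largest relative deviation 4.97e-10), with its centring otherwise not stated. Depth has no meaning for arrays, and their number limits the precision.

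From these intensities, log2 values were computed here, with the 75th percentile of each array subtracted. Spots marked as outliers were removed (0 among the collagens) and the spots of a probe averaged. A probe needed more than 50% of its spots well above background to count as detected. A gene was represented by its brightest probe well above background on both arrays. Symbols came from RefSeq accessions through the GRCm38.p6 gene table: 27230 of 55674 probes were named, and 453 of 26531 probes with an NM accession were not. For a gene detected on 1 array, the fold is a lower bound that does not include the software's error. It was computed against the lowest signal well above background on the other array, or the gene's own value there if higher. These lowest signals were 18.1 with the agonists and 19.9 with the antagonists.

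The collagen chains, classes and lists were chosen with earlier results of these data known. Values were given for every detected fibrillar and type IV chain, for other chains with an absolute log2 ratio of at least 0.5 or a trimer partner so named, and in the handling lists for genes at or past 0.5 and the extremes of each list. Alternatives were no scaling, scaling on the array median, on the spike-in controls or on probes detected on both arrays, quantile normalization, loess (span 0.3), the summary table, normexp (offset 50), the median over spots, outlier spots kept, the mean over probes, no filter or a stricter filter on signal, thresholds of 1.5-fold and 4-fold, every spot detected, the software's looser detection criterion, and types XV and XVIII counted with the basement membrane class. The calculation was tested on simulated data. Python 3.11.15, numpy 2.4.6, pandas 2.3.3, matplotlib 3.10.9, R 4.3.3 and limma 3.58.1 were used.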

Additional observations from a re-analysis of the deposited data

How the results depend on the processing

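The class medians stayed above 0 and above the median of all named genes under every alternative run. No scaling, the scalings on the array median, detected probes or spike-in controls, and the summary table each shift every gene alike. For these, the position relative to all genes was fixed in advance and is no check. Keeping outlier spots could change no collagen value, since 0 of them were among the collagens. The median over spots could change only Col4a1, since the other chains were read from a single spot. The class medians ranged from 0.11 to 0.50 for all chains and from 0.10 to 0.42 for fibrillar chains. The class medians ranged from 0.19 to 0.51 for basement membrane and from 0.05 to 0.49 for other chains. They moved by more than the error with no scaling (0.47, 0.39, 0.49 and 0.46, with all genes at 0.15) and with scaling on spike-in controls (0.50, 0.42, 0.51 and 0.49, with all genes at 0.17), and relative to all genes the median of all chains stayed between 0.21 and 0.39. The 3 chains at least 2-fold higher became 6 without any scaling and 6 with spike-in scaling (Col15a1, Col22a1 and Col6a5 in addition), 1 with normexp (Col18a1), 5 of 43 with no filter on dim probes, 1 of 16 where only bright genes were kept, 1 at a 4-fold threshold and 9 at a 1.5-fold threshold. Over all named genes the 612 higher and 88 lower were 992 and 39 without scaling, 1040 and 38 on spike-in controls, 323 and 33 after normexp, 1349 and 554 of 20658 without a filter, 176 and 19 of 8430 bright genes, 104 and 9 at 4-fold, and 1413 and 653 at 1.5-fold, of 15260 where no other number is given. The 1 chain at least 2-fold lower, Col4a4, became 0 with no scaling, with scaling on probes detected on both arrays, with loess, with spike-in scaling, with the authors' summary values, with normexp, with the mean over probes, with only bright genes and at 4-fold, 2 with no filter and 3 at 1.5-fold. Over the alternatives the log2 ratio ranged from 0.97 to 2.38 for Col14a1, from 1.05 to 1.46 for Col18a1, from 0.84 to 1.81 for Col6a4 and from -1.07 to -0.65 for Col4a4. Of 424 values of single chains under the alternatives, 67 moved by more than the error. Most of these came with no scaling or spike-in scaling, which add the same constant to every log2 ratio. Some of the other values could not move, as with outlier spots kept, so the count is no measure of robustness. Detection on both arrays held for 34 chains where every spot had to be well above background and for 38 by the software's looser criterion. No paired analysis was possible because each group has 1 array. These data give the errors of spots and the spread between probes of a gene (median span 0.41 over 9 chains, 4 with probes of opposite sign) and none between ovaries. Most chains rest on 1 spot of 1 matched probe, and chains near the detection limit (Col4a3, Col6a5 and Col6a6) have the widest error.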

Other observations

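Genes outside the collagen family that carry a collagen-like triple-helical domain were listed after the collagen values had been seen. Of 30 such genes, 24 were detected on both arrays, and their median log2 ratio was 0.79; 22 were above 0 and 2 below 0 (Scara3 at -0.23 and Colq at -0.07). Higher with the agonists by at least 2-fold were 9 of the 24 (37.5%, against 4.01% of all named genes) and 0 were at least 2-fold lower. Marco, a scavenger receptor of macrophages, gave a signal of 1927 with the agonists and 227 with the antagonists (log2 ratio 2.84). Msr1, another scavenger receptor of macrophages, gave 395 and 145 (log2 ratio 1.21). The complement subunits C1qa, C1qb and C1qc, which are made largely by macrophages, had log2 ratios of 1.18, 0.80 and 1.07. The macrophage markers had a median of 1.14 on the same arrays, and their part in these ratios was not tested.

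Several of the secreted members lay in the same direction. Gldn gave 212 with the agonists and 61.4 with the antagonists (log2 ratio 1.55), and the collectin Colec11 gave 1064 and 373 (log2 ratio 1.27). C1qtnf1 was at 1.17 and C1qtnf5 at 1.13. Cthrc1, a secreted protein of matrix-forming cells, gave 192 with the agonists and 14.2, not well above background, with the antagonists. After scaling, its agonist signal was 8.16-fold the lowest signal well above background on the antagonist array. Fcna, a ficolin, gave 132 and 15.9, not well above background, and was 5.61-fold that lowest signal. These bounds do not include the errors of the log2 ratios, which were 0.51 for Cthrc1 and 0.46 for Fcna. Colec10, Fcnb, Mbl1 and Sftpa1 were well above background on neither array.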
